A study of Mus musculus with 10 samples.

Results

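Differentiating spermatogonia (diff. SpG) were examined in single-nucleus data of the mouse testis, in which the BD Rhapsody system gave scRNA-seq and scATAC-seq from shared nuclei. They were the cells that carried the name SPG_diff in the deposited cell tables, which made 927 of 45250 cells of the scRNA-seq and 760 of 343866 cells of the scATAC-seq. The libraries came from testes of wild-type C57BL/6 J mice at 11, 17 and 25 days postpartum (dpp) and, at 8 weeks of age, of Cre/+ mice and of Nfya-CKO mice. Cre/+ mice carry Stra8-Cre, a knock-in allele that expresses ZsGreen1 and Cre from the Stra8 locus in premeiotic germ cells, and Nfya-CKO mice in addition have loxP sites around exons 5 and 6 of Nfya, the DNA-binding subunit gene of the trimeric factor NF-Y. Each condition was 1 library per assay and the number of animals behind a library was not given in the sources used here. Values below therefore have no replicate error and no p-value, and genes are described by the size of a difference, with 2-fold as the limit.

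Spermatogonia are the mitotic germ cells of the seminiferous tubule. Undifferentiated spermatogonia include the stem cells and depend on GDNF from Sertoli cells, which signals through the receptors GFRA1 and RET. Retinoic acid drives them into differentiation: they lose ZBTB16, gain the receptor tyrosine kinase KIT, pass through a series of divisions and become preleptotene spermatocytes (pL), in which STRA8 and MEIOSIN start the meiotic program. DMRTB1 (also DMRT6) coordinates the end of the mitotic program, CRABP1 is a cytoplasmic carrier of retinoic acid, and CENPA is the histone H3 variant of centromeres.

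Kit, Dmrtb1 and Cenpa are defining markers of the population. Stra8 was among the 2 listed meiotic entry genes with at least 2-fold more scATAC-seq signal than in undifferentiated spermatogonia at the main settings. The 250 bases before the annotated start of these 4 genes are shown. Each is written 5′ to 3′ on the strand of the gene, from RefSeq for GRCm38.p6, the build of mm10, and capitals mark CCAAT or its reverse complement ATTGG, the core bound by NF-Y.

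Kit, chr5:75574737-75574986, plus strand: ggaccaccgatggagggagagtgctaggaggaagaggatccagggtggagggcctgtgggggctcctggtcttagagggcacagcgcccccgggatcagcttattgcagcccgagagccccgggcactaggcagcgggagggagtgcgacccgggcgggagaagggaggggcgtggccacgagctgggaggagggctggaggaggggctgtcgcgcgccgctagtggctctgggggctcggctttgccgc
Dmrtb1, chr4:107684231-107684480, minus strand: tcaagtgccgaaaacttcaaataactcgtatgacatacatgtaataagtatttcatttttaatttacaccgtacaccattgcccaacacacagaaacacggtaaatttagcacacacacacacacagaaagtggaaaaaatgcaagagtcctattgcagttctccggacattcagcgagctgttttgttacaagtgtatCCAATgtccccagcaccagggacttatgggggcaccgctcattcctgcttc
Stra8, chr6:34920698-34920947, plus strand: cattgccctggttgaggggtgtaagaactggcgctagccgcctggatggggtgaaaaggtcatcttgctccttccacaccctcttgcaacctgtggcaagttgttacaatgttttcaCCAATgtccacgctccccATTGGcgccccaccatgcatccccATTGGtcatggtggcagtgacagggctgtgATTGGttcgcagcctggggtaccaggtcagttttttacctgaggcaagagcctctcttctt
Cenpa, chr5:30666636-30666885, plus strand: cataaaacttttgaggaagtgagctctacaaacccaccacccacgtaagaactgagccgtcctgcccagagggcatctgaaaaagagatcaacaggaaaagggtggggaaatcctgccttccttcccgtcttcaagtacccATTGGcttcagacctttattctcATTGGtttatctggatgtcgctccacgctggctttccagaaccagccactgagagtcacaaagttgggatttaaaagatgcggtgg

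The Stra8 window held 4 copies of this core, Cenpa 2, Dmrtb1 1 and Kit 0, and that of Crabp1, the remaining label marker, scanned in the same way, held 0. Of the 32851 windows of the same length in the reference table, 33.8% held at least 1 copy on either strand, so a single copy is common. The Stra8 window also held 2 copies of AGGTCA, the half-site of nuclear receptors such as the retinoic acid receptors, which was present on either strand in 14.0% of all windows. These are matches of letters, and binding was not measured in these files. For Kit and Dmrtb1 the reference table holds 2 windows each, of which the more upstream is shown, but the RefSeq gene model of Dmrtb1 reaches further upstream, to position 107704011.

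The population rested largely on 1 library. Of its 927 cells, 783 came from the Cre/+ library, 108 from 25 dpp, 22 from 11 dpp, 12 from 17 dpp and none from the library labelled Nfya-CKO, and 2 had no library name. Diff. SpG made 6.53% of the Cre/+ cells (exact Clopper-Pearson 95% interval 6.09 to 6.99). The share was 0.599% at 25 dpp, with an interval of 0.491 to 0.722, then 0.351% at 11 dpp, with one of 0.220 to 0.531, and 0.320% at 17 dpp, with one of 0.166 to 0.559. The 0 of 5152 cells of the library labelled Nfya-CKO allows a share of up to 0.0582% by the limit of 3 cells, and up to 0.0716% by the exact interval. Its spermatogonia had a name of their own, SpG Nfya-CKO (491 cells), in which Crabp1 was higher than in diff. SpG (3.33 against 1.43 per 10000) and Kit (1.08 against 1.56), Dmrtb1 (0.173 against 1.04) and Cenpa (0.636 against 1.17) were lower. These intervals cover counting error only. Set against undiff. SpG, of whose 1292 cells 646 came from 11 dpp and 7.89% from Cre/+, the balance was reversed: the Cre/+ library held 783 diff. to 102 undiff. SpG, and the 11 dpp library 22 to 646. In pL 0.341% of cells were from Cre/+. Library, genotype, age and population therefore cannot be told apart in any comparison of diff. SpG with undiff. SpG or pL.

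All 927 cells lay in a single one of the study's scRNA-seq clusters. Their median depth was 6188 UMIs and 2720 genes per cell, against 9290 UMIs in undiff. SpG and 8161 in pL, with single cells between 741 and 49205 UMIs. By library, the median was 6670 UMIs in Cre/+, 4497.5 at 25 dpp, 3876.5 at 11 dpp and 7564.5 at 17 dpp. Summed over cells, the population held 7154120 UMIs.

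Many of these cells had a barcode that also occurred in another library. This held for 455 of the 927 cells (49.1%), against 23.4% of all 45250 cells, 32.5% of undiff. SpG and 19.0% of pL. Nearly all were cells of the Cre/+ library whose barcode was also a cell of the library labelled Nfya-CKO, with which Cre/+ shared 3820 barcodes, while Cre/+ and 25 dpp shared 19. Most of the shared cells fell into 2 sets with opposite depth ratios. In 305 cells the barcode had more UMIs in Cre/+ (median 11954) than in its namesake, a cell named other somatic (median 834), at a median ratio of 14.3 and a range of 8.43 to 20.2. In 144 cells it was reversed: a median of 2375.5 UMIs stood in Cre/+ and 21762 in a cell named SpG Nfya-CKO, at a median ratio of 9.51 and a range of 6.01 to 12.2. These 144 made 15.5% of the diff. SpG cells and 5.44% of their UMIs, and only 15 of them had a scATAC-seq profile, against 300 of the 305. The gene values are pooled per population in the deposited matrices and could not be recomputed without these cells, so their part in the RNA results was not tested. Leaving out every cell with more UMIs under its barcode in another library gave a share of 5.91% in the Cre/+ library. In scATAC-seq, 15 of the 760 cells (1.97%) shared a barcode with another library.

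Some transcripts were high in the SpG Nfya-CKO column, and their level in diff. SpG varied as a share of it. Insl3, a hormone of Leydig cells, the androgen-producing cells between the tubules, was at 39.8 per 10000 in SpG Nfya-CKO and 0.893 in diff. SpG, which is 2.24% of it. Cyp17a1, a steroidogenic enzyme, stood at 2.95% of its SpG Nfya-CKO level and Star, a cholesterol carrier, at 11.3%. The share was 27.7% for Nkain2, 30.6% for Dgkg, 82.6% for Asxl3 and 87.6% for Chl1. Most of these transcripts were also high in other somatic cells. The 6 listed Leydig genes summed to 226 there, against 51.0 in SpG Nfya-CKO and 5.97 in ES. Nkain2 was at 49.8, Asxl3 at 11.7 and Chl1 at 7.27 in other somatic cells, while Dgkg was at 0.251. The source of these transcripts in diff. SpG was not tested.

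**Figure D1:**
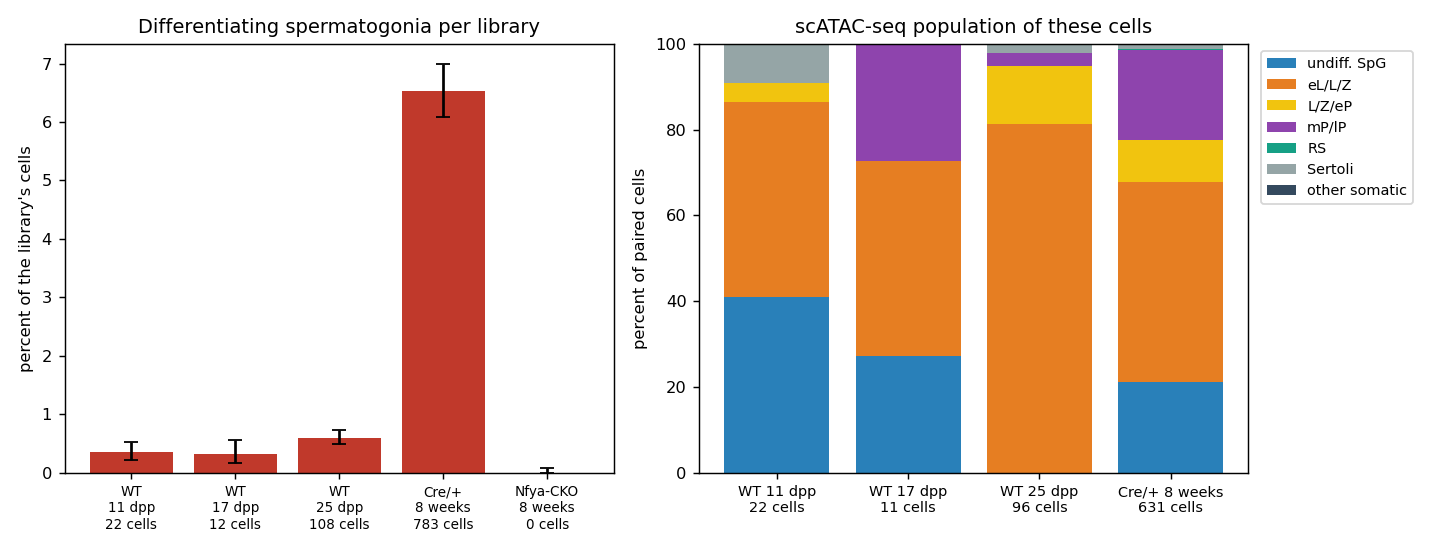
Left, share of each scRNA-seq library's cells named diff. SpG, in percent, with exact 95% binomial intervals as bars; the Cre/+ library stands at 6.53% and the others below 0.6%. Right, scATAC-seq population names of the same cells where both assays were read, in percent of 22, 11, 96 and 631 paired cells; eL/L/Z is the most frequent name in every library, and undiff. SpG is absent at 25 dpp.

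The 4 label markers did not single diff. SpG out from pL. RNA values are the pooled level of a population per 10000 in the deposited matrix. Kit (chr5:75574987-75656722 in GRCm38.p6) stood at 0.548 in undiff. SpG, 1.56 in diff. SpG and 2.09 in pL, and Dmrtb1 at 0.133, 1.04 and 1.02. Crabp1 was at 0.794, 1.43 and 1.57, and Cenpa at 1.04, 1.17 and 1.31. Against undiff. SpG, Kit and Dmrtb1 were at least 2-fold higher, with log2 ratios of 1.36 and 2.29, while Crabp1 (0.77) and Cenpa (0.16) were not. Against pL, all 4 were under 2-fold apart, with 3 of the 4 lower in diff. SpG. In that comparison 12.1% of all genes were at least 2-fold higher and 1.42% lower. Crabp1 had its highest value of the 13 populations in SpG Nfya-CKO, at 3.33. The name is therefore kept here as the study's, for a population whose defining markers were shared with pL. Over 19190 genes of the same matrix, Spearman's rho of the RNA levels with diff. SpG was 0.921 for eL/L/Z, 0.902 for L/Z/eP, 0.880 for undiff. SpG, 0.878 for pL, 0.877 for mP/lP and 0.876 for D, as a description across genes, which are not independent replicates.

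**Figure D2:**
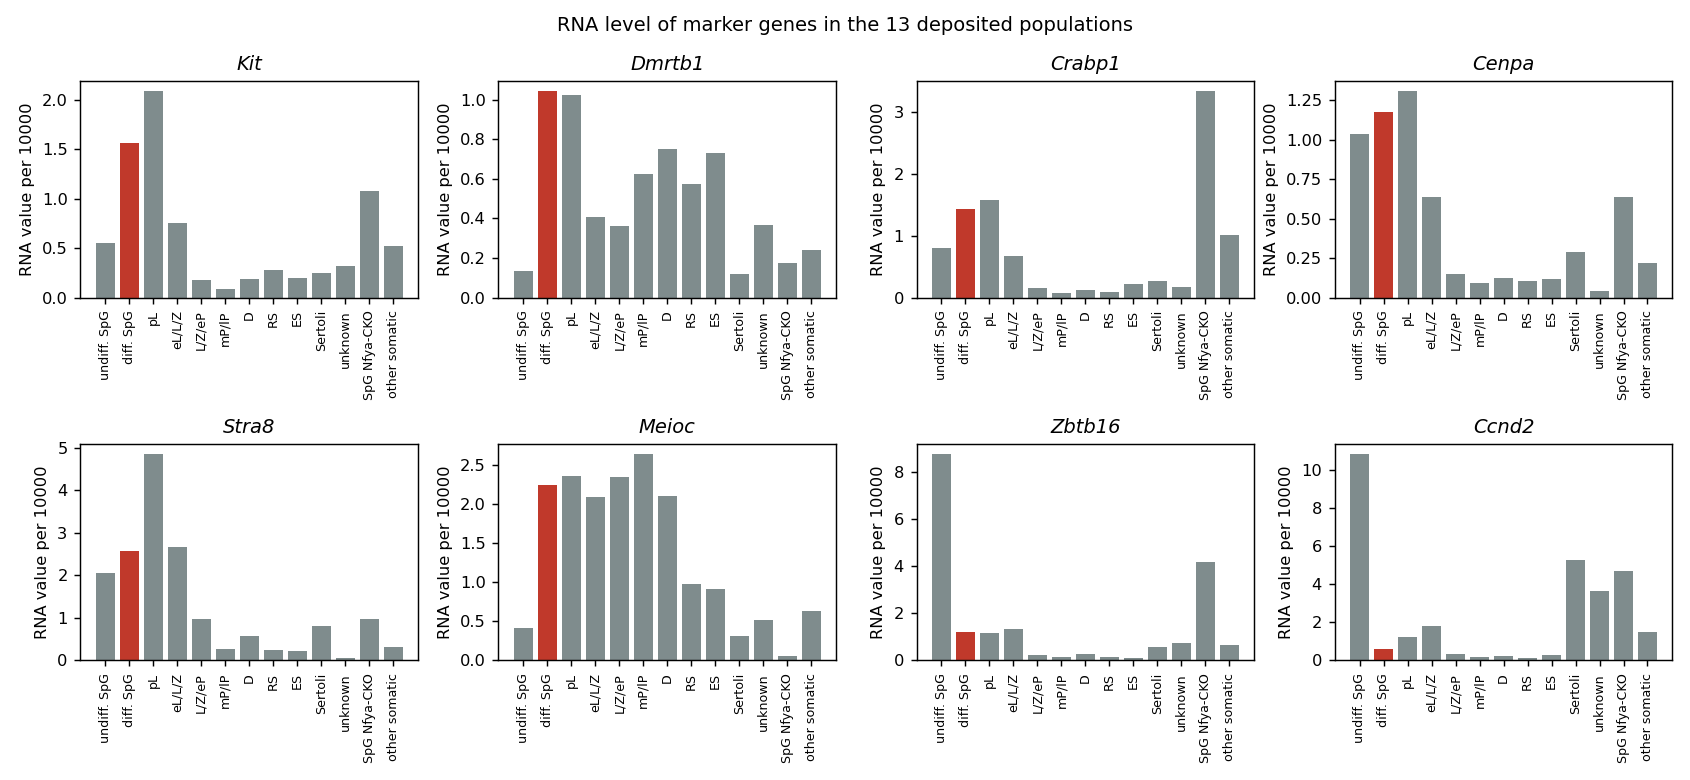
RNA level per 10000 of 8 genes in each of the 13 deposited populations, 1 pooled value per bar on linear axes that differ between genes, with diff. SpG in red. Kit, Crabp1 and Cenpa are close to their pL levels, Zbtb16 and Ccnd2 stand far below undiff. SpG, and Stra8 is about as high as in eL/L/Z.

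Genes of undifferentiated spermatogonia had low RNA values in diff. SpG. All 21 listed genes of undifferentiated spermatogonia had lower values in diff. SpG than in undiff. SpG, and 15 were at least 2-fold lower, beside 7.05% of the 14264 genes compared. The median log2 ratio of the list was -1.55 and that of all genes 0.07. The study named its populations from known marker genes, and this list was chosen with earlier results known. The direction may therefore be partly set by the naming. Zbtb16 (PLZF), a transcriptional repressor that maintains stem cells, went from 8.74 to 1.20. Ccnd2, a D-type cyclin, was at 10.8 and 0.579. Sall4, a zinc finger factor of germline stem cells, was at 4.88 and 0.907, and Lin28a, an RNA-binding protein of progenitors, at 2.59 and 1.012. The GDNF receptor genes Ret and Gfra1 were at 2.30 and 0.119 and at 1.08 and 0.198. Neurog3, a factor of committed progenitors, was at 1.04 and 0.0993. Foxo1 and Sox3, transcription factors of undifferentiated spermatogonia, were 1.63 and 1.55 lower on the log2 scale and still stood at 1.66 and 2.03.

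With ratios ranked after adding 0.1 to each level, the genes with the lowest ratios outside the lists included Foxf1, a forkhead factor (2.81 in undiff. SpG, 0.105 in diff. SpG), Egr4, an immediate early factor (4.16 and 0.344), Zfp462 (4.45 and 0.353), Sdc4, a heparan sulfate proteoglycan (7.76 and 0.787), Ptch1, the Hedgehog receptor (1.502 and 0.0947), Kcnc2, a potassium channel subunit (3.15 and 0.267), Tagln2 (1.37 and 0.0802) and Glis3 (5.38 and 0.571). Of the 1006 genes at least 2-fold lower, 855 had their highest value of the 9 control germ populations in undiff. SpG. Such genes cannot be highest in diff. SpG, so this count is partly set by construction, and counts over all genes are given below. Of the 10 genes with the lowest ratios, 7 were lower again in pL, such as Foxf1 (0.0421), Ret (0.0607), Kcnc2 (0.0384) and Glis3 (0.128), while Ccnd2 (1.24), Ptch1 (0.127) and Tagln2 (0.158) were higher there.

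Genes of meiotic entry and early prophase differed the other way. All 25 measured genes of that list had higher values in diff. SpG than in undiff. SpG, where 54.3% of all genes did. The median log2 ratio of the list was 0.69 and that of all genes 0.07. At least 2-fold higher were 6 of the 25, beside 10.2% of all genes. The same list summed to 61.8 per 10000 in diff. SpG, 36.6 in undiff. SpG, 63.3 in pL, 80.9 in eL/L/Z and 97.6 in L/Z/eP. It was 70.3 in mP/lP, 63.1 in D, 40.9 in RS and 31.6 in ES. The pachytene and diplotene list had a median log2 ratio of 0.70. The part of RNA of later germ cells in these values was not tested. Meioc, which with YTHDC2 stabilises the meiotic program, was at 0.409 and 2.24. Prdm9, which marks recombination hotspots, was at 0.122 and 0.618, Sycp3, an axial element protein, at 0.673 and 2.21, Rec8, the meiotic cohesin subunit, at 0.140 and 0.457, and Mei1, needed for double-strand breaks, at 0.352 and 0.977. Tex101, a germ cell surface protein, was at 1.17 and 3.03. Stra8 differed far less at the RNA level, 2.05 against 2.59, and its highest value was 4.86 in pL. In Cre/+ mice the Stra8 locus carries the Cre knock-in, whose part in these values was not tested. The Meiosin gene, listed as Gm4969, was at 0.0710 and 0.235. Against pL, where 12.1% of all genes were at least 2-fold higher and 1.42% lower, the same list was under 2-fold apart but for Spo11 (0.334 in diff. SpG, 0.0994 in pL), the enzyme that makes the breaks, and its median log2 ratio was -0.14.

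Among the 12 genes of the wider list for differentiating spermatogonia, 3 were at least 2-fold higher than in undiff. SpG, Kit, Dmrtb1 and the X-linked homeobox gene Rhox13 (0.227 and 0.929), and Sohlh1, a bHLH factor of early differentiation, was at least 2-fold lower (1.75 and 0.818), beside 10.2% and 7.05% of all genes. Kit and Dmrtb1 are label markers of the population, so of the 3 only Rhox13 was not used in its name. Sohlh2 was at 0.688 and 0.703, Dmrt1 at 3.76 and 4.43, and the methyltransferase gene Dnmt3b at 1.28 and 1.13. None of the 12 was 2-fold apart from pL, where 12.1% of all genes were higher and 1.42% lower.

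KIT signals through PI3K to AKT and mTOR. Of 25 such genes compared, Kit was the only one at least 2-fold higher than in undiff. SpG and 7 were at least 2-fold lower, beside 10.2% and 7.05% of all genes, with a median log2 ratio of -0.27. The 7 were the catalytic subunit genes Pik3cd (1.07 and 0.234) and Pik3ca (1.21 and 0.522), the regulatory subunit gene Pik3r1 (0.811 and 0.254), Akt2 (2.06 and 0.876), the exchange factor gene Sos1 (0.842 and 0.355), and Foxo1 and Foxo3 (2.64 and 1.22), transcription factors that AKT keeps out of the nucleus. Kitl, the ligand, which is made by Sertoli cells, was at 0.170, the lowest value of the 9 germ populations. Mtor was at 1.52 and 1.15. Against pL none of the 25 was 2-fold apart, where 12.1% of all genes were higher and 1.42% lower.

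In the retinoic acid pathway 16 of the 24 listed genes were above the minimum level, and of these only the target Rec8 was at least 2-fold higher and none was at least 2-fold lower, beside 10.2% and 7.05% of all genes. Rarg, the receptor of spermatogonia, was at 0.730 in undiff. SpG and 0.628 in diff. SpG, and Rara at 0.617 and 0.435. Rbp4 was at 0.274 and 0.526, with 0.874 in pL. The synthesising enzyme gene Aldh1a1, also made by Sertoli cells, was at 0.345 in diff. SpG and 1.05 in pL, and Stra6, the retinol uptake receptor of Sertoli cells, at 0.0578 and 0.218; these were the 2 genes at least 2-fold lower than in pL, beside 1.42% of all genes.

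Replication and division genes were present at levels near those of undiff. SpG and pL. Of 25 replication genes, 3 were at least 2-fold higher than in undiff. SpG, a share near the 10.2% of all genes: Ccne2, a cyclin of S phase entry (0.159 and 0.631), Rrm2, the ribonucleotide reductase subunit (0.213 and 0.716), and Rfc4, of the clamp loader (0.255 and 0.614). The list's median log2 ratio was 0.35 against undiff. SpG and -0.35 against pL. Pcna, the sliding clamp, was the only one at least 2-fold lower than in pL (0.457 and 1.24), beside 1.42% of all genes. Of 25 genes of G2/M and chromosome segregation, Mki67, the proliferation marker (1.79 and 4.32), and Tpx2, a spindle factor (0.844 and 1.83), were at least 2-fold higher than in undiff. SpG, again a share near that of all genes. None of the 25 was 2-fold apart from pL, where 12.1% of all genes were higher and 1.42% lower. From these 2 lists of 25 genes, Mcm2, Mcm7, Rfc4, Plk1, Bub1b, Cenpe and Ttk had their highest value of the 9 control germ populations in diff. SpG. Mcm2 was at 1.38 and Mcm7 at 1.40. Of all 9727 genes at 0.2 or more, 7.18% were highest there. The lead could be small, at 1.06 times the next population for Cenpe and 1.22 times for Bub1b.

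The DNA methylation genes compared were under 2-fold apart. None of 10 was 2-fold apart from undiff. SpG, where 10.2% of all genes were higher and 7.05% lower. None of 9 was 2-fold apart from pL, where 12.1% of all genes were higher and 1.42% lower. All 9 had lower values than in pL, where 49.6% of all genes had higher ones. Dnmt1, the maintenance methyltransferase, was at 3.22 against 5.17 and Uhrf1, its recruiter, at 1.18 against 1.79. Of the NF-Y subunits, which bind CCAAT as a trimer, Nfya was at 0.667 in diff. SpG, 0.456 in undiff. SpG and 0.414 in pL, Nfyb had its highest control germ value in diff. SpG (0.936, with 0.639 in undiff. SpG and 0.838 in pL), and Nfyc was at 1.31, 1.17 and 1.73 in diff. SpG, undiff. SpG and pL. None of the 3 subunits was 2-fold apart in either comparison.

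Genes at their highest in diff. SpG were mostly close to their level in the next population. Of 9727 genes at 0.2 or more, 698 (7.18%) had their highest value of the 9 control germ populations in diff. SpG, at a median of 1.11 times the next population, and the next was pL for 336 of them. In 8 the level reached 2 times that of the next population. Such genes numbered 5 in pL, 1 in eL/L/Z, 5 in L/Z/eP, 27 in mP/lP and 11 in D, and 480 in undiff. SpG, 439 in ES and 1353 in RS. The 8 were Fbxl2, an F-box protein gene (1.16, next 0.480), Timm50, of the mitochondrial import machinery (1.04, next 0.471), Tonsl, which acts in repair at replication forks (0.726, next 0.315), Ppp1r1b (0.414), Hdac5, a class IIa deacetylase (0.405), Dgkg, a diacylglycerol kinase (0.380), and the unnamed loci B930036N10Rik (0.247) and Gm47938 (0.224). After these by the same ratio came Fance, of the Fanconi core complex (0.529, 1.93 times the next), Acap3 (0.204), S1pr2 (0.201), Grk2 (0.942), Nup210, a nuclear pore protein gene (1.42), 1110008P14Rik (0.369) and Btbd2 (0.640). Against the SpG Nfya-CKO column, only Ppp1r1b, B930036N10Rik and Gm47938 stayed 2-fold above every other population, and the number highest in diff. SpG was 332; Dgkg stood at 1.24, Tonsl at 0.822 and Timm50 at 1.10 there.

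Most genes with higher RNA in diff. SpG had their highest level in later germ cells. Of 1459 genes at least 2-fold higher than in undiff. SpG (10.2% of those compared), 1271 (87.1%) had their highest value in mP/lP, D, RS or ES, 927 of them in RS or ES, while 74 were highest in diff. SpG and 80 in pL. Against pL, 1662 genes (12.1%) were at least 2-fold higher and 195 (1.42%) lower, and 1632 of the 1662 were highest in those 4 late populations. A gene called higher than undiff. SpG or pL cannot be highest in that population, so each count is partly set by construction. Of all genes with at least 0.2 in their highest control germ population, 1602 were highest in mP/lP, 390 in D, 2745 in RS and 1830 in ES. The counts were 2471 in undiff. SpG, 2416 in pL, 698 in diff. SpG, 651 in L/Z/eP and 565 in eL/L/Z. Leaving out genes at least 4-fold higher in a late population than in undiff. SpG, 303 genes were higher and 1006 lower than in undiff. SpG, and 198 were higher and 178 lower than in pL. Because that filter uses the level in undiff. SpG, the fall in genes higher than undiff. SpG is partly set by construction.

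**Figure D3:**
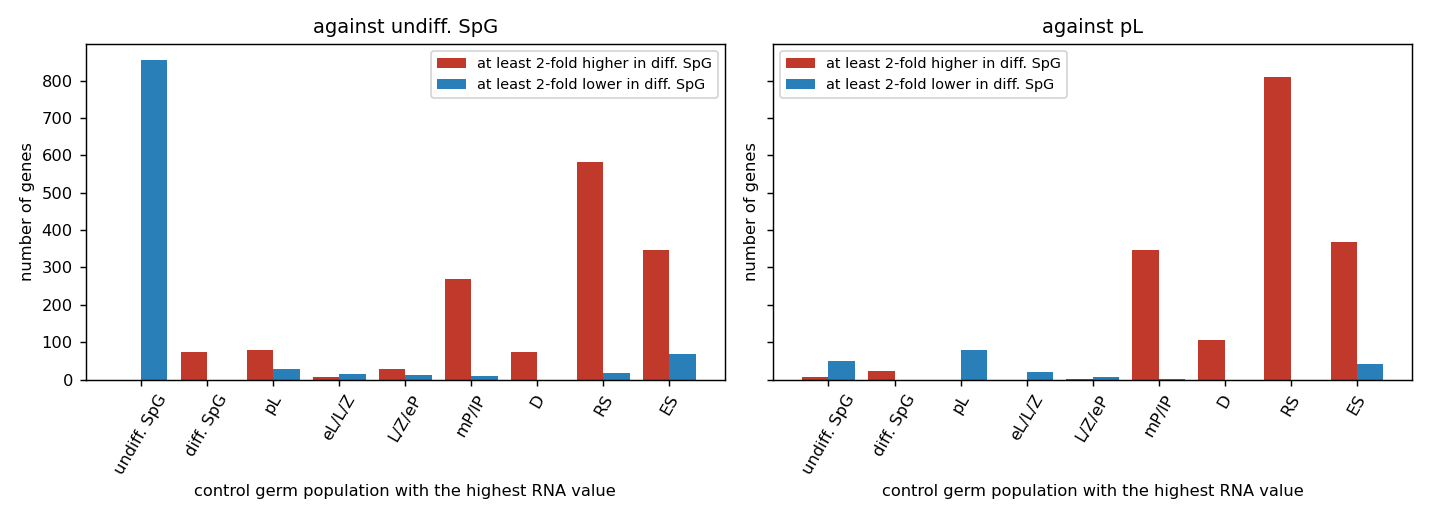
Number of genes at least 2-fold higher (red) or lower (blue) in diff. SpG than in undiff. SpG (left) or pL (right), by the control germ population in which the gene had its highest RNA value. Genes higher in diff. SpG were mostly highest in RS, ES or mP/lP, and 855 of the 1006 lower than in undiff. SpG were highest there.

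The 10 largest ratios to undiff. SpG, ranked in the same way, were mostly of transcripts that package or build the sperm. Prm1, the protamine that replaces histones, stood at 3.94 in diff. SpG, against 0.155 in undiff. SpG, 0.00525 in pL, 1.13 in mP/lP, 10.3 in RS and 40.8 in ES. The transition protein genes Tnp2 and Tnp1 were at 3.21 and 1.501 (0.199 and 0.0915 in undiff. SpG), Odf1, of the outer dense fibres, at 2.36 (0.149), Catsperz, of the sperm calcium channel, at 1.67 (0.1003), Cox6b2, a testis cytochrome c oxidase subunit, at 3.88 (0.368), and Fabp9, of the perforatorium, at 2.33 (0.197). Crisp2 (2.17, with 0.0260 in pL), Gm37389 (2.39, 0.0452) and Cdiptos (2.94, 0.0797) were added by the comparison with pL. Asxl3, Chl1 and Nkain2 differed from these: they were high in RS and ES too, but also in SpG Nfya-CKO (12.9, 5.24 and 85.6, with 10.7, 4.59 and 23.7 in diff. SpG), where Prm1 was at 0.0171.

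Over the whole elongating spermatid list, all 16 genes were at least 2-fold higher than in undiff. SpG and than in pL, beside 10.2% and 12.1% of all genes. Their level in diff. SpG was a median of 10.3% of that in RS or ES, whichever was higher, from 5.09% for Hspa1l to 23.0% for Odf2. In undiff. SpG the median was 0.731%, in pL 0.0635%, in eL/L/Z 0.498%, in mP/lP 3.98%, in D 12.8%, in other somatic cells 4.48% and in SpG Nfya-CKO 0.199%. The round spermatid list gave 12 of 16 at least 2-fold higher than in undiff. SpG, beside the same 10.2%, and a median of 19.6% of the spermatid level, from 11.0% for Catsper4 to 41.4% for Zpbp, against 3.39% in undiff. SpG and 1.02% in pL. Of 14 pachytene and diplotene genes, 5 were at least 2-fold higher than in undiff. SpG, where 10.2% of all genes were, among them Ldhc, the sperm lactate dehydrogenase (0.579 and 3.44), Pgk2 (0.0566 and 0.803), Hspa2 (0.547 and 1.95) and Piwil1 (0.712 and 1.76). Across the elongating spermatid list the ratio of diff. SpG to other somatic cells ran from 1.39 to 2.72 and that to D from 0.538 to 1.12. The share of Cre/+ cells, the library of 99.6% of ES and 77.0% of RS cells, was 84.5% in diff. SpG, 7.89% in undiff. SpG, 0.341% in pL and 5.80% in other somatic cells. The part of RNA from other cells in these values was not tested.

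**Figure D4:**
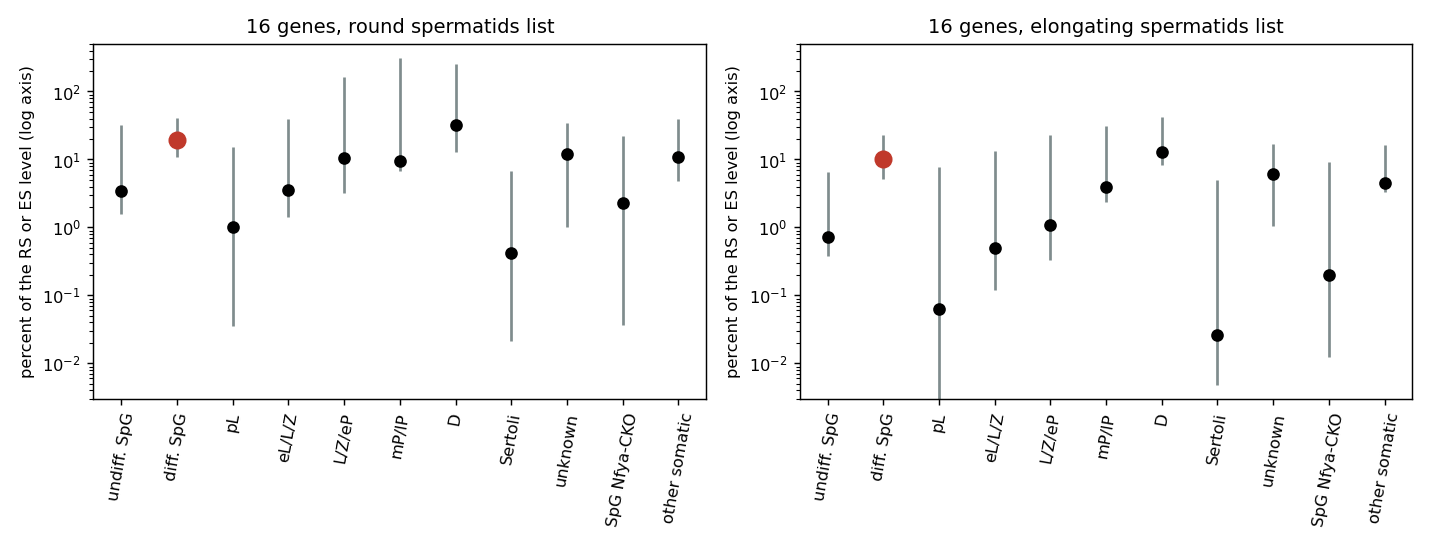
RNA level of the 16 genes of each spermatid list in each population, in percent of the gene's level in RS or ES, whichever is higher, on a log axis that ends at 0.003; points are medians over genes, vertical lines run from the lowest to the highest gene, and a line that reaches the bottom includes a gene at 0. Diff. SpG (red) lies at 19.6% and 10.3%, above undiff. SpG, pL and eL/L/Z in both lists and below D.

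Somatic transcripts took both directions. Of 10 Sertoli genes compared with pL, 5 were at least 2-fold lower in diff. SpG and none higher, beside 1.42% and 12.1% of all genes, and the summed level of the 12 listed genes was 6.38 per 10000, against 7.85 in undiff. SpG, 11.7 in pL, 24.4 in eL/L/Z and 128 in Sertoli cells. Sox9, which defines them, was at 0.407 and Amh at 0.00628. Of the 3 Leydig genes high enough to compare, 2 were at least 2-fold higher than in undiff. SpG and than in pL, beside 10.2% and 12.1% of all genes. Insl3 was at 0.893, against 0.0640 in undiff. SpG and 0.0227 in pL, and Cyp17a1 at 0.218, against 0.0207 and 0.00550. The sum of the 6 listed genes, 1.31 against 0.212 and 0.221, was mostly Insl3, and Cyp11a1 (0.0286) and Hsd3b1 (0.0131) were low in all 3 populations. The 12 peritubular, endothelial and immune markers summed to 0.431 in diff. SpG, with none above 0.1, against 0.498 in undiff. SpG. The part of these transcripts in the differences was not tested.

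The genes furthest below pL included transcripts of those somatic cells. Aard (0.518 and 2.42), Gatm (0.643 and 2.75) and Basp1 (0.467 and 2.07) were all above 20 per 10000 in Sertoli cells. Ptma, prothymosin alpha, had the lowest ratio, with 31.8 in pL and 3.08 in diff. SpG, and stood at 14.5 in undiff. SpG. Eef1a1, an elongation factor of translation, was at 12.003 in pL and 2.76 in diff. SpG, with 22.0 in undiff. SpG. Ptma was at 0.826 and Eef1a1 at 1.80 in SpG Nfya-CKO. Gm10282, Nutf2-ps1 and Gm3550 were among the 10 lowest too, but may share sequence with other loci, and unique alignment makes their values uncertain. Csrp1 was at 0.181 in diff. SpG and 0.956 in pL.

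The paired cells were spread over several scATAC-seq populations. In 760 of the 927 cells (82.0%) both assays were read. scATAC-seq clusters were named by the study partly from the RNA names of paired cells and had no cluster for diff. SpG or pL. Of the 760, 388 (51.1%, exact 95% interval 47.4 to 54.7) lay among eL/L/Z cells, 145 (19.1%, 16.3 to 22.1) among undiff. SpG, 138 (18.2%, 15.5 to 21.1) among mP/lP, 76 (10%) among L/Z/eP, 10 among Sertoli cells, 2 among RS and 1 among other somatic cells; none lay among SpG Nfya-CKO. Cells with a pL name were split differently, with 46.8% in eL/L/Z, 36.8% in undiff. SpG and 11.97% in L/Z/eP. The eL/L/Z cells were also spread, with 39.6% in eL/L/Z, 38.1% in L/Z/eP and 9.26% in undiff. SpG, and 74.6% of undiff. SpG cells lay among undiff. SpG in both assays.

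These fractions moved with the library. At 25 dpp, 78 of 96 cells lay in eL/L/Z and none in undiff. SpG, which allows up to 3.12% by the limit of 3 cells, or 3.77% by the exact interval. In Cre/+ the counts were 295 of 631 in eL/L/Z (46.8%), 133 in undiff. SpG (21.1%), 132 in mP/lP (20.9%) and 62 in L/Z/eP. At 11 dpp they were 10 in eL/L/Z and 9 in undiff. SpG of 22, and at 17 dpp 5, 3 and 3 of 11 in eL/L/Z, undiff. SpG and mP/lP. Depth differed as well: cells in mP/lP had a median of 10988 UMIs, 4189 genes and 22360 fragments, those in undiff. SpG 8732 UMIs and 25028 fragments, and those in eL/L/Z 6214.5 UMIs and 12860 fragments. The median TSS enrichment, a ratio of signal at gene starts to that in their flanks, was 14.0 in diff. SpG, 12.5 in undiff. SpG and 14.3 in pL, and the median fraction of reads in promoters was 0.209, 0.195 and 0.233.

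Gene by gene, scATAC-seq signal was lower at most undifferentiated genes and higher at most meiotic entry genes, where 58.3% of all genes had a higher value than in undiff. SpG. Its values are given per 1000000 of a population's signal, mitochondrial genes included; the study's methods define promoter accessibility as mean coverage around the start site, but do not say whether this matrix was made so. Gfra1 was at 39.7 in undiff. SpG and 11.1 in diff. SpG, Ccnd2 at 64.6 and 23.2, Nanos2 at 17.7 and 5.06, Upp1 at 22.5 and 9.75, Ret at 38.7 and 19.9 and Zbtb16 at 62.4 and 39.4. Of the 21 undifferentiated genes, 17 were lower and 4 at least 2-fold lower, beside 4.08% of all 30408 genes, with a median log2 ratio of -0.66 and one of 0.11 over all genes. Etv5, Foxo1, Sox3 and Id4 had higher values, though their RNA was lower: Sox3 was at 38.3 and 51.0 and Foxo1 at 64.9 and 69.9. Scaled without mitochondrial genes, Etv5 (-0.10 on the log2 scale) and Foxo1 (-0.03) turned slightly lower, so that 19 of the 21 were lower and 6 at least 2-fold lower. On that scale 7.08% of all genes were at least 2-fold lower and 51.0% had a higher value.

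Stra8 was at 28.4 in undiff. SpG, 60.9 in diff. SpG and 68.7 in pL, and Meioc at 28.04, 64.8 and 61.0; these were the 2 of 25 meiotic entry genes at least 2-fold higher than in undiff. SpG (3.45% of all genes were), and 20 of the 25 had higher values. Stra8 lost that call with a pseudocount of 5 (log2 ratio 0.98) and without mitochondrial genes in the scale (0.95). For Stra8 the scATAC-seq log2 ratio of 1.07 was larger than the RNA one of 0.32. The Stra8 locus carries the Cre knock-in in Cre/+ mice, which gave 631 of the 760 diff. SpG cells of scATAC-seq. The part of the knock-in in the Stra8 values was not tested. Kit was at 23.4, 45.8 and 47.1 and Dmrtb1 at 27.0, 47.7 and 60.7. Crabp1 (32.9, 22.4 and 34.5) and Cenpa (29.4, 22.3 and 32.2) were lower in diff. SpG than in both neighbours. Top2a, the mitotic topoisomerase, was at 35.8, 65.4 and 62.6, and 23 of 25 replication genes had higher values than in undiff. SpG, none by 2-fold, and 20 did so without mitochondrial genes in the scale. Spo11 and Tex101 had less signal in diff. SpG than in undiff. SpG (16.4 against 32.0 and 4.25 against 7.14), with more RNA.

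Spermatid genes also had more signal in diff. SpG than in undiff. SpG, 7 of the 16 elongating and 6 of the 16 round spermatid genes by at least 2-fold, beside 3.45% of all genes. Without mitochondrial genes in the scale, 6 of each list did so, beside 3.87% of all genes. The number of round spermatid genes with a higher value went from 13 to 10 on that scale, where 51.0% of all genes had one. Prm3 was at 2.75 and 14.0, Odf1 at 1.74 and 7.41, Acr, the acrosomal protease, at 2.33 and 11.3, and Prm1 at 2.002 and 5.61. In RS the same genes were at 54.1, 47.1, 40.6 and 7.89. Over the lists, diff. SpG had a median of 31.5% (round) and 33.4% (elongating) of the spermatid signal, undiff. SpG 10.9% and 21.9%, pL 15.5% and 19.7%, and mP/lP 26.8% and 27.2%. The names of the paired cells show 2 of 760 in RS and 138 in mP/lP, and 13 of the 760 had more fragments under their barcode in another library; the part of either in these values was not tested. Sertoli genes went the other way in scATAC-seq too, with 11 of 12 lower than in undiff. SpG, where 58.3% of all genes had a higher value. Aard and Inha, 2 of them, were at least 2-fold lower, beside 4.08% of all genes.

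**Figure D5:**
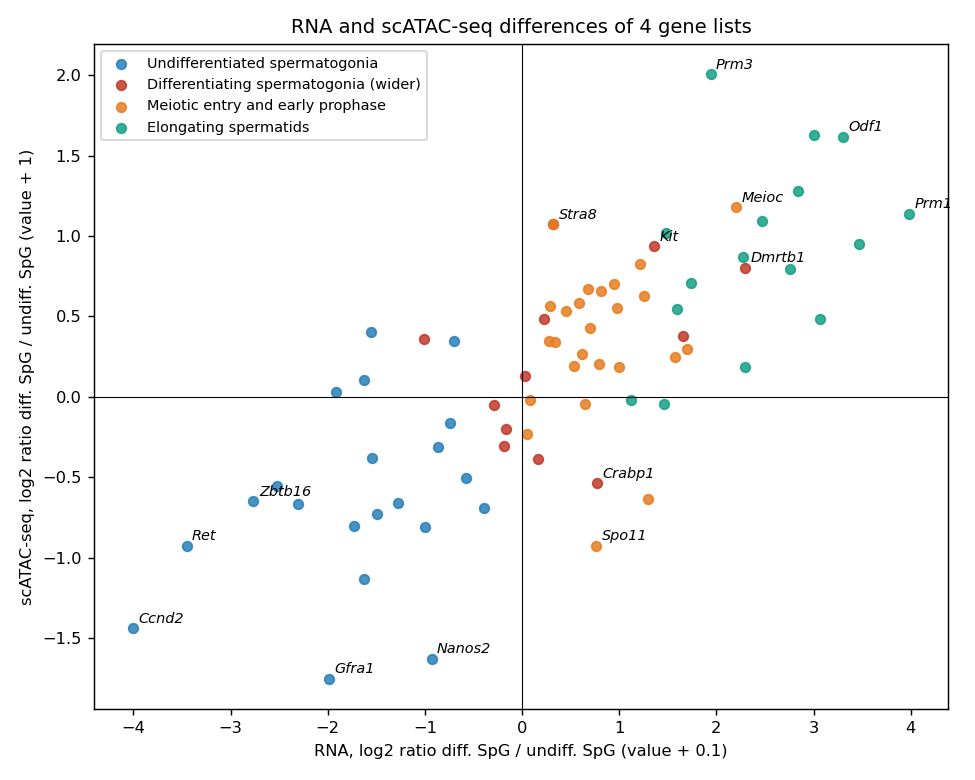
Log2 ratio of diff. SpG to undiff. SpG in RNA (x axis, value + 0.1) and in scATAC-seq (y axis, value + 1) for the genes of 4 lists, 1 point per gene and 1 pooled value per population. Undifferentiated genes lie mostly at the lower left, with Gfra1 and Nanos2 lowest in scATAC-seq, meiotic entry and elongating spermatid genes mostly at the upper right, and Crabp1 and Spo11 had more RNA with less signal.

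Across all genes, those at least 2-fold higher in RNA had a median scATAC-seq log2 ratio of 0.33 (1459 genes), those at least 2-fold lower one of -0.39 (1006 genes) and the rest one of 0.20 (11788 genes). Among the genes higher in RNA, the 1271 highest in late germ cells had a median of 0.33 and the other 188 one of 0.32. Of the 30408 genes, 1049 had at least 2-fold more signal and 1241 at least 2-fold less than in undiff. SpG. That split depends on the scale, since mitochondrial genes took 35.0% of the signal in diff. SpG and 40.6% in undiff. SpG: without them, 1176 were higher and 2152 lower, and the medians of the 3 RNA classes were 0.22, -0.53 and 0.08. The most extreme ratios belonged to low or unnamed loci, with Gm27169, Gm15656, 4930522N08Rik, Gm42654 and Gm13794 highest and Gm48215, 1700011C11Rik, Gm36633, Trim12c and Gm45121 lowest. Against pL, 1085 (3.57%) had at least 2-fold more signal and 63 (0.207%) at least 2-fold less.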

How the data were processed

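The members and the gene lists were chosen with earlier results of these data known. For scRNA-seq, the authors aligned reads to mm10 with STAR 2.7.10b, kept unique alignments, collapsed UMIs, kept cells of at least 500 genes and below 5% mitochondrial UMIs and clustered with Seurat 5.2.1, after which DoubletFinder removed doublets. For scATAC-seq, the authors aligned fragments to mm10 with bwa-mem (BWA 0.7.12), shifted ends for the transposase cut with bedtools 2.27.1, and kept cells of at least 1000 fragments and a TSS score of 4 with ArchR 1.0.3, which also removed doublets. Tool versions are from the submitters' processing notes and the study's methods.

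The authors deposited raw counts of UMIs, genes and fragments per cell, the percent of mitochondrial UMIs, TSS enrichment as a ratio, the fraction of reads in promoters and a doublet score. Each gene matrix deposited by the authors holds 1 pooled value per population as the natural log of 1 plus a level that sums to 10000; this was read from the values. The study's methods describe pseudo-bulks that merge the reads or fragments of a cell type, scaled by depth for coverage tracks, but do not say whether these matrices came from them. A further 12 columns of values were not used.

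Levels were recovered as exp(value) - 1, and scATAC-seq was rescaled to 1000000. Ratios are log2 of value + 0.1 for RNA, over genes with a mean of at least 0.05 in the pair, and of value + 1 for scATAC-seq, over all nuclear genes above 0. With 1 library per condition no test was made. Depth limits precision through counting error, and other effects of depth were not tested. Libraries held 30227701 to 64967271 UMIs in cells. Named genes were those of the lists, the 10 largest RNA ratios in each direction at 0.2 or more, the 15 largest ratios to the next control germ population, and the 5 largest scATAC-seq ratios in each direction. One gene that this rule names is not reported here. Counting was tested on simulated data. Python 3.11.15, numpy 2.4.6, pandas 2.3.3, scipy 1.17.1 and matplotlib 3.10.9 were used. Group, age and library of a cell were taken from its library name; cells without one entered only the pooled counts. Another 26 settings were chosen at the outset and 3 after seeing the data.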

Additional observations from a re-analysis of the deposited data

How the results depend on the processing

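No paired analysis was possible because each condition was 1 library and no test was made. Of 75 values of the main results under an alternative, 49 stayed within their interval or within 1.5 times the reported count and 26 did not; of the values recomputed for single genes (scATAC-seq for 10 of them), 258 kept their direction and side of the 2-fold limit, the other 2 being the scATAC-seq ratio of Stra8 at a pseudocount of 5 (0.98) and without mitochondrial genes in the scale (0.95). Over cells of at least 1000 genes, the share of diff. SpG was 0.887% at 25 dpp and 9.64% in Cre/+, and 5.91% in Cre/+ without cells of more UMIs under the same barcode in another library, an alternative chosen after seeing the data. Counts followed the pseudocount. At 0.01, 2568 genes were higher and 1800 lower than undiff. SpG, and 491 lower than pL. At 0.5, 230 were higher and 284 lower than undiff. SpG, and 332 higher and 43 lower than pL. At a mean of at least 0.2, 928 were higher than undiff. SpG and 799 higher than pL. Without genes of late germ cells, 303 were higher than undiff. SpG and 198 higher than pL; fewer genes are compared there by construction. With the median ratio set to 0, 1266 were higher and 1136 lower than undiff. SpG. For genes highest in diff. SpG, a minimum of 0.05 gave 25 at least 2-fold over the next and a minimum of 1 gave 225 highest with 2 at least 2-fold. With SpG Nfya-CKO included, also added after seeing the data, 332 were highest and 3 at least 2-fold over the next. In the Cre/+ library alone, 46.8% of paired cells lay in eL/L/Z. In scATAC-seq, a pseudocount of 0.5 gave 1758 higher, one of 5 gave 54 higher and 259 lower, a mean of at least 10 left 29 higher and 697 lower, and scaling without mitochondrial genes gave 2152 lower. Thus the count of genes with more scATAC-seq signal rests on genes of low signal. Spermatid percentages kept within 1.5 times. The cause of the other moves was not tested. The 11 and 17 dpp libraries, with 22 and 12 diff. SpG cells, allow only wide intervals.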
